A study of Nicotiana benthamiana with 8 samples.

Results

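Glycerol-3-phosphate acyltransferases (GPATs) were followed in leaves of Nicotiana benthamiana, a tobacco relative that transiently expresses genes delivered by Agrobacterium tumefaciens. A contig was taken as a member where either of its annotations named a glycerol-3-phosphate acyltransferase, or where its Arabidopsis symbol was GPAT1, GPAT5 or GPAT6. This gave 5 of the 3305 contigs in the deposited table: 2 with the symbol GPAT5, 1 with the symbol GPAT6, 1 annotated as GPAT1-like and 1 with the symbol ATS2. The ATS2 contig was annotated as a chloroplastic 1-acyl-sn-glycerol-3-phosphate acyltransferase, a different enzyme whose name contains the words searched for, so 4 contigs are GPATs. No contig in the table had the symbol GPAT1, GPAT4, GPAT7, GPAT8, GPAT9 or ATS1, and these genes were not analysed here.

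The MdMYB68 group received the apple transcription factor MdMYB68 (MD08G1076200) as a GFP fusion under the CaMV 35S promoter, mixed with p19, a plant-virus protein that blocks silencing of introduced genes. The Empty vector group received the vector without the insert, also mixed with p19. Plants were 4-week old, the leaves were collected 4 days after infiltration, and each group had 4 biological replicates, each a pool of 3 plants with 4 leaves per plant. The gene was therefore expressed from another species and from a strong promoter in leaf tissue, and a pooled leaf does not separate its cell types. No contig in the table was named for MYB68, so the level of the introduced gene was not checked here.

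GPATs transfer a fatty acyl group from acyl-CoA to glycerol-3-phosphate. In Arabidopsis the land-plant GPATs of the suberin and cutin pathways acylate the middle carbon of glycerol and can use omega-oxidized acyl groups. This gives the glycerol-bound building blocks of both polyesters. Arabidopsis GPAT5 is required for normal suberin in roots and seed coats, GPAT6 contributes to cutin in flowers, and GPAT1 is known from the tapetum and pollen. Suberin is laid down in endodermis, periderm and seed coats, while the outer wall of a leaf epidermis carries cutin.

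The RT-qPCR primers that the study designed for GPAT5 are shown because they identify which of the 2 GPAT5 contigs was taken as the suberin gene, Nbv5tr6232718. The sequences of the contigs themselves were not used here.

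GPAT5 right primer: tcatgcaacaacagctaggg
GPAT5 left primer: acgtggcttctactggcaac

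Total mapped reads were between 31244291 and 34080202 in the MdMYB68 libraries and between 29371282 and 32279582 in the Empty vector libraries. The listed contigs took 17.5 to 18.7% of these reads in MdMYB68 libraries and 6.92 to 8.76% in Empty vector libraries. The deposited contigs had already been selected on these libraries, by a change of at least 4-fold and a difference of at least 5 RPKM (reads per kilobase of contig, scaled to mapped reads), so a test on these contigs does not stand as a second, separate line of evidence. RPKM values of the 2 groups did not overlap for 100% of the contigs. Total gene reads, which count every read mapped to a contig, were compared with the quasi-likelihood test of edgeR, and a contig was called at a Benjamini-Hochberg adjusted p under 0.001 over all 3305 contigs. At that threshold 83.4% of all contigs were called higher with MdMYB68 and 12.4% lower. All 4 GPAT contigs were called higher and the ATS2 contig was called lower. In uniquely placed reads, which count only reads mapped to a single contig, the same 4 GPAT contigs were called higher, beside 70.5% of all contigs called higher and 8.68% lower, and ATS2 had no read. Shares this close to the background show nothing particular to the GPATs, whose sizes of change are given one by one.

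Leaf mesophyll markers (chlorophyll a-b binding proteins, the small subunit of Rubisco and photosystem proteins) moved the other way. Of 64 such contigs, 63 were called lower and 0 higher, and their summed level was 0.627 to 0.971% of mapped reads in MdMYB68 libraries and 2.73 to 3.96% in Empty vector libraries. All 17 contigs of a suberizing-tissue list, which holds the 2 GPAT5 contigs, were called higher, with a summed level of 0.0771 to 0.0955% of mapped reads in MdMYB68 libraries and 0.00114 to 0.00160% in Empty vector libraries. The list for cutin-forming epidermis found only the GPAT6 contig itself. Every contig of these lists had passed the 4-fold selection, so markers that changed less are left out. The selection thus set a least size of change for each listed marker, and the sums do not measure all markers of a tissue. The part of these shifts in the GPAT values was not tested, and in leaf RNA fewer cells of a type and less RNA per cell cannot be told apart.

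The first GPAT5 contig, Nbv5tr6232718 (1797 bases), was nearly absent from control leaves and among the higher members with MdMYB68. It had 30.2, 35.2, 36.6 and 35.5 RPKM in MdMYB68 libraries 1 to 4, against 0.0910, 0.0209, 0.111 and 0.0621 RPKM in Empty vector libraries 1 to 4. The MdMYB68 libraries were close to each other and far above every Empty vector library, where 1 to 5 reads were counted per library. The mean was 34.4 ± 2.81 RPKM with MdMYB68 and 0.0712 ± 0.0390 RPKM with Empty vector (SD, n = 4 each). Over the groups, 6608 reads stood against 13 reads, a 487-fold ratio per mapped read with an exact 95% counting interval of 285 to 915. The edgeR log2 fold change was 8.87 (SE 0.25, adjusted p = 5.3e-10), and it stayed called at a smaller 5.96 with TMM factors on the listed contigs and 6.0 with DESeq2's own size factors. This SE is smaller than the counting error of 13 reads, and the counting interval is the wider of the 2. A higher log2 ratio was found in 170 of the 3305 contigs (5.14%), with groups without a read set to a floor of 3 reads. This floor can lower the ratio of contigs absent from Empty vector libraries, so 170 is a least count.

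The second GPAT5 contig, Nbv5tr6238075 (1744 bases), was already expressed in control leaves. It had 26.0, 38.4, 29.7 and 42.5 RPKM in MdMYB68 libraries, against 9.01, 6.69, 6.45 and 6.18 RPKM in Empty vector libraries. The lowest MdMYB68 library was above the highest Empty vector library, and libraries 2 and 4 were the higher ones of the MdMYB68 group. Means were 34.2 ± 7.61 RPKM with MdMYB68 and 7.08 ± 1.30 RPKM with Empty vector (SD, n = 4 each), a read ratio of 4.83 (95% counting interval 4.55 to 5.14). The edgeR log2 fold change was 2.26 (SE 0.19, adjusted p = 8.9e-07), but it turned negative when the libraries were scaled on the listed contigs themselves, at -0.68 with TMM factors and -0.66 with DESeq2's own size factors. That scaling moved the median log2 fold change of all listed contigs to 0.40 (TMM) and 0.43 (DESeq2), against 3.34 with all mapped reads as library size. Relative to that median the contig was at -1.08 with all mapped reads and -1.09 with TMM. Of the 3305 contigs, 76.5% had a higher log2 ratio.

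**Figure D1:**
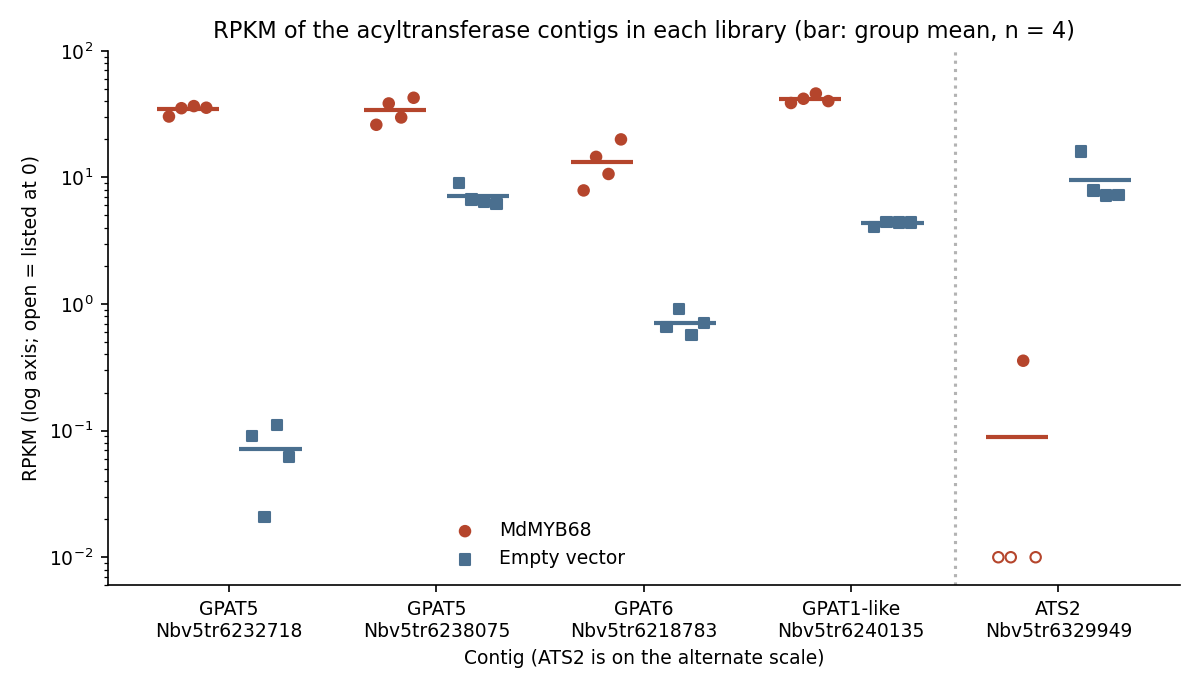
RPKM of the 5 member contigs in each of the 4 MdMYB68 libraries (circles, left) and 4 Empty vector libraries (squares, right) on a log axis, with a bar at the group mean and open symbols, placed at the bottom, for values listed at 0. With MdMYB68 both GPAT5 contigs averaged about the same level (34.4 and 34.2 RPKM), while with Empty vector they stood apart (0.0712 and 7.08 RPKM). ATS2, on the separate scale of the alternate contigs, was listed at 0 in 3 of the 4 MdMYB68 libraries.

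The 2 GPAT5 contigs thus differed in their response. The log2 ratio of the first to the second, in which library size cancels, averaged 0.08 ± 0.27 in MdMYB68 libraries and -6.33 ± 0.71 in Empty vector libraries (SD, n = 4 each). The difference was 6.40, with p = 0.029 in a two-sided exact permutation test, the smallest p that 4 against 4 libraries allow, and 0.032 after adjustment over the 10 pairs of members compared. Of their summed RPKM, Nbv5tr6232718 held 53.7, 47.8, 55.2 and 45.5% in MdMYB68 libraries, against 1.00, 0.311, 1.69 and 0.994% in Empty vector libraries. Between these 2 contigs, near-even shares with MdMYB68 stood against a share almost wholly on Nbv5tr6238075 with Empty vector. Any GPAT5 copy outside the selected contigs is not counted in these shares.

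Reads placed on more than 1 contig bear on this pair. Uniquely placed reads made up 57.8% of the reads of Nbv5tr6232718 with MdMYB68 and 69.2% with Empty vector, and 59.2% of those of Nbv5tr6238075 with MdMYB68 and 56.2% with Empty vector. Between these 2 contigs, or between them and other contigs, the remaining reads could have been divided in more than 1 way. With uniquely placed reads alone the share of Nbv5tr6232718 was 49.9 ± 4.65% with MdMYB68 and 1.25 ± 0.618% with Empty vector (SD, n = 4 each), and the pair differed by 5.86 on the log2 scale.

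GPAT6, the cutin-pathway member, is represented by Nbv5tr6218783 (1680 bases). It had 7.89, 14.5, 10.6 and 19.9 RPKM in MdMYB68 libraries, against 0.657, 0.916, 0.568 and 0.708 RPKM in Empty vector libraries. Every MdMYB68 library was far above every Empty vector library, yet the MdMYB68 libraries differed among themselves by 2.53-fold, with library 4 the highest and library 1 the lowest. Means were 13.2 ± 5.23 RPKM with MdMYB68 and 0.712 ± 0.148 RPKM with Empty vector (SD, n = 4 each). The read ratio was 18.5 (95% counting interval 15.4 to 22.3), and the edgeR log2 fold change was 4.20 (SE 0.33, adjusted p = 4.8e-07). With TMM factors on the listed contigs the change was 1.27 and no longer passed the threshold (edgeR adjusted p = 0.0061).

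GPAT6 was the most variable of the 4 GPATs with MdMYB68. Its coefficient of variation was 39.5% in MdMYB68 libraries, where counting alone would give 4.09%, and 20.7% in Empty vector libraries, where counting would give 18%. For Nbv5tr6238075 it was 22.3% in MdMYB68 libraries, and both contigs had the same order of those libraries, 1 lowest, then 3, then 2 and 4 highest. For the first GPAT5 contig and the GPAT1-like contig the coefficients in MdMYB68 libraries were 8.19 and 7.60%, without that order. Uniquely placed reads were 95.7% of the GPAT6 reads with MdMYB68 and 94.4% with Empty vector, so shared reads hardly enter its values.

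The GPAT1-like contig, Nbv5tr6240135, is a fragment of 261 bases, named in only 1 of the 2 annotations. It had 38.7, 41.8, 45.9 and 40.0 RPKM in MdMYB68 libraries, against 4.07, 4.46, 4.42 and 4.42 RPKM in Empty vector libraries. Both groups were tight and did not overlap. Means were 41.6 ± 3.16 RPKM with MdMYB68 and 4.34 ± 0.179 RPKM with Empty vector (SD, n = 4 each), a read ratio of 9.50 (95% counting interval 7.85 to 11.6) from 1161 reads with MdMYB68 and 117 reads with Empty vector. The edgeR log2 fold change was 3.24 (SE 0.19, adjusted p = 6.2e-08), within 0.10 of the median of all listed contigs. With scaling on the listed contigs it was not called, at 0.29 with TMM (edgeR adjusted p = 0.17) and 0.32 with DESeq2's own factors (DESeq2 adjusted p = 0.071).

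Together the 4 GPAT contigs summed to 103, 130, 123 and 138 RPKM in MdMYB68 libraries, against 13.8, 12.1, 11.5 and 11.4 RPKM in Empty vector libraries. The mean sum was 123 ± 15 RPKM with MdMYB68 and 12.2 ± 1.12 RPKM with Empty vector (SD, n = 4 each), a 10.1-fold ratio. Each of the 4 had been selected for a change of at least 4-fold and all were higher, so a sum ratio of at least 4 followed. GPATs outside the selected contigs are not in the sum. The make-up of the sum changed along with its size. Nbv5tr6232718 held 28.0 ± 1.92% of the sum with MdMYB68 and 0.584 ± 0.325% with Empty vector, while Nbv5tr6238075 held 27.5 ± 3.21% with MdMYB68 and 57.7 ± 5.0% with Empty vector. GPAT6 held 10.5 ± 3.03% with MdMYB68 and 5.87 ± 1.32% with Empty vector, and its lowest MdMYB68 library (7.67%) was only just above its highest Empty vector library (7.58%). Each of these 3 shares gave p = 0.029 in the two-sided exact permutation test (adjusted p = 0.038 over 4 shares). The shares are parts of the same sum, so these are not separate results. The GPAT1-like contig held 34.0 ± 4.20% with MdMYB68 and 35.9 ± 4.34% with Empty vector, a difference within the spread between libraries (exact permutation p = 0.57).

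**Figure D2:**
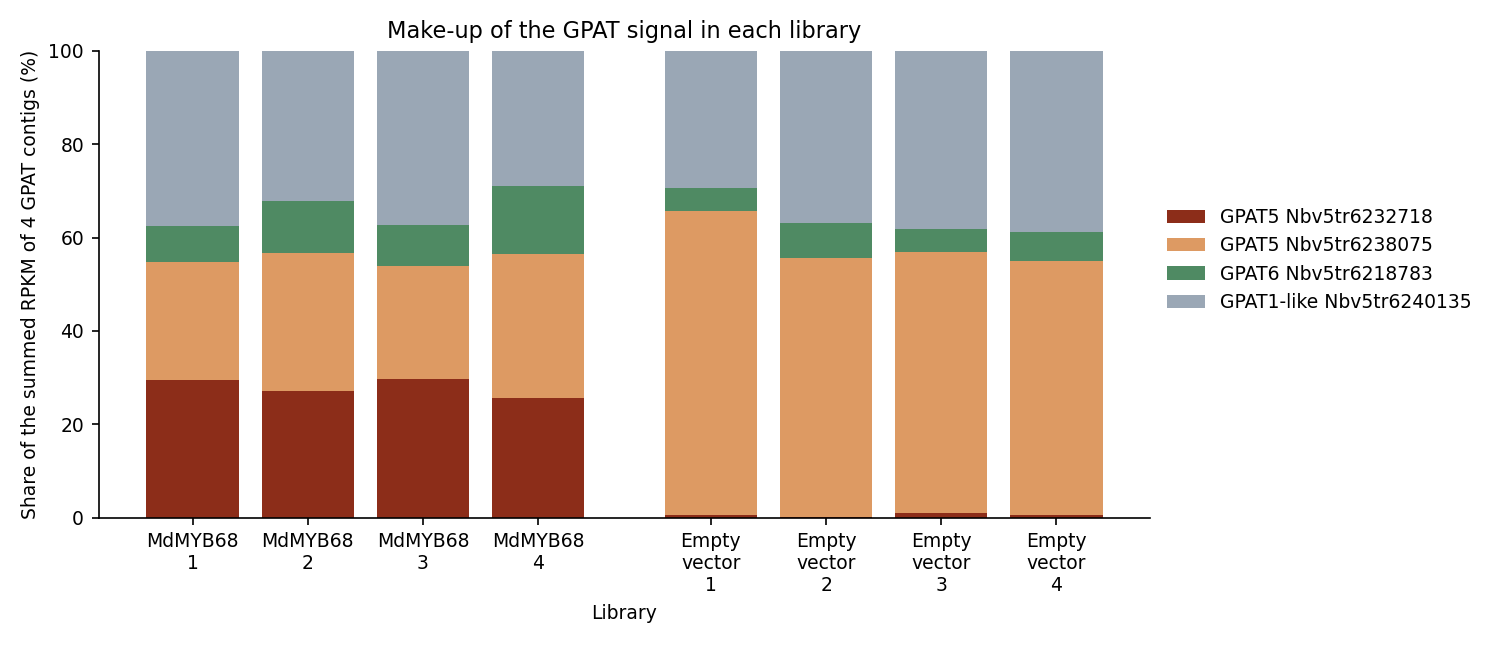
Share of the summed RPKM of the 4 GPAT contigs in percent (vertical axis) held by each contig, stacked for the 4 MdMYB68 libraries (left) and the 4 Empty vector libraries (right). The GPAT5 contig Nbv5tr6232718 fills 25.7 to 29.8% of each MdMYB68 bar and 0.173 to 0.958% of each Empty vector bar, while the GPAT1-like share is similar in both groups.

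The responses of the 4 GPATs also differed pair by pair. Nbv5tr6232718 rose more than GPAT6 by 4.55 and more than the GPAT1-like contig by 5.44 on the log2 scale. Nbv5tr6238075 rose less, with a difference of -1.85 to GPAT6 and of -0.96 to the GPAT1-like contig. Each of these 4 differences had an exact permutation p of 0.029 (adjusted p = 0.032 over 10 pairs). Between GPAT6 and the GPAT1-like contig the difference was 0.89, from log2 read ratios of 0.95 ± 0.59 in MdMYB68 libraries and 0.06 ± 0.27 in Empty vector libraries (SD, n = 4 each), and it did not pass (exact permutation p = 0.057). In uniquely placed reads that difference was 1.00 (exact permutation p = 0.029, adjusted p = 0.029 over 6 pairs). These pair differences do not depend on how libraries are scaled.

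Levels per length can be compared among the 4 GPATs, which share the primary scale. In MdMYB68 leaves the order of mean RPKM was the GPAT1-like contig (41.6), the 2 GPAT5 contigs (34.4 and 34.2) and GPAT6 (13.2). The 2 GPAT5 contigs did not differ beyond their spread, and the range of Nbv5tr6238075 also overlapped that of the GPAT1-like contig, while GPAT6 lay below all the others. In Empty vector leaves the order was Nbv5tr6238075 (7.08), the GPAT1-like contig (4.34), GPAT6 (0.712) and Nbv5tr6232718 (0.0712), and no neighbouring ranges overlapped. Among the 1831 primary contigs, 682 had a higher mean RPKM than Nbv5tr6232718 with MdMYB68 and 1686 with Empty vector. Its level with MdMYB68 was thus not exceptional among these contigs, which had all been selected for change.

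ATS2 (Nbv5tr6329949, 1561 bases) carries the name of the plastid enzyme that adds the next acyl group, making phosphatidic acid for chloroplast membrane lipids. It had 0, 0, 0.356 and 0 RPKM in MdMYB68 libraries, against 16.0, 7.89, 7.19 and 7.25 RPKM in Empty vector libraries. The single MdMYB68 library with any signal had 3 reads, and Empty vector library 1 was well above the other three. With 3 reads in MdMYB68 libraries and 306 in Empty vector libraries, the ratio of Empty vector over MdMYB68 was 106 (95% counting interval 36.1 to 519), and the edgeR log2 fold change was -6.52 (SE 0.71, adjusted p = 5.8e-06), or -9.33 with TMM factors. Without MdMYB68 library 3 no read was left in that group. With 3 reads taken as the floor for the group, the contig was then at least 80.8-fold lower with MdMYB68. This bound leaves out the only MdMYB68 library with reads, and the counting interval over all libraries reaches down to 36.1. None of its reads in any library was uniquely placed, so which copy they came from was not resolved. Its RPKM is scaled to the alternate contigs and cannot be set beside the levels of the other members.

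The substrates of a GPAT come from several steps, which were followed with lists of contigs chosen by annotation. Over all 3305 contigs the median log2 ratio was 3.35, and with TMM factors 1912 of the 3305 were above 0. Of all contigs, 83.4% were called higher in total gene reads and 70.5% in uniquely placed reads. These are the values to read each list against. Glycerol-3-phosphate supply was represented by 4 contigs, all called higher, and 3 of them were positive with TMM factors. Their median log2 ratio was 3.33. Of these, 3 were GPDHC1, a cytosolic glycerol-3-phosphate dehydrogenase that makes the acyl acceptor from dihydroxyacetone phosphate. The fourth, Nbv5tr6291037, was annotated as a diacylglycerol kinase family protein and met only the wording of the list. GPDHC1 contig Nbv5tr6206068 averaged 51.0 ± 2.61 RPKM with MdMYB68 and 3.93 ± 0.384 RPKM with Empty vector (SD, n = 4 each), with an edgeR log2 fold change of 3.69 (SE 0.11, adjusted p = 8.9e-10).

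On the acyl donor side, LACS4 (Nbv5tr6246568), a long-chain acyl-CoA synthetase that activates fatty acids to the CoA esters GPATs use, averaged 40.6 ± 7.52 RPKM with MdMYB68 and 0.867 ± 0.0634 RPKM with Empty vector (SD, n = 4 each), a 46.9-fold ratio. Omega oxidation, the step that gives suberin and cutin acyl groups their terminal hydroxyl or carboxyl group, had 21 contigs. Of these, 20 were called higher and 1 lower. The median log2 ratio was 6.49, and all those called higher kept a positive sign with TMM factors. At least 50% of reads were uniquely placed in 5 of the 21. In uniquely placed reads 16 were called higher, beside 70.5% of all contigs. The 21 contigs included 6 of CYP86A1, a suberin omega-hydroxylase in Arabidopsis, 2 of CYP86B1, which acts on very-long-chain acyl groups, and 7 of CYP86A8, known from cutin. CYP86B1 contig Nbv5tr6237440 averaged 39.6 ± 5.45 RPKM with MdMYB68 and 0.891 ± 0.171 RPKM with Empty vector (SD, n = 4 each). The contig called lower, Nbv5tr6199277, was HOTHEAD-like, at a log2 fold change of -2.02.

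Elongation of acyl chains stayed nearer the median. All 14 contigs were called higher. The median of these log2 ratios was 2.86, and 7 of the 14 kept a positive sign with TMM factors. CER10 contig Nbv5tr6236329, the enoyl reductase of the elongase complex, averaged 342 ± 14.8 RPKM with MdMYB68 and 71.1 ± 2.28 RPKM with Empty vector (SD, n = 4 each), a 4.82-fold ratio whose sign flipped to -0.70 on the log2 scale with TMM factors. The 3 fatty alcohol contigs, all with the symbol CER4, a fatty acyl reductase, were called higher with a median of 4.73, and 2 of them kept a positive sign with TMM factors. Contig Nbv5tr6234363 among them averaged 287 ± 62.3 RPKM with MdMYB68 and 2.80 ± 0.382 RPKM with Empty vector (SD, n = 4 each). All 5 contigs listed for feruloylation of omega-hydroxyacids, the link between the aliphatic and aromatic parts of suberin, were called higher. Their median was 6.50, and all stayed positive with TMM factors. The highest of these log2 ratios, 8.44, was that of Nbv5tr6203661, which 1 annotation names a shikimate O-hydroxycinnamoyltransferase. Nbv5tr6212895, named omega-hydroxypalmitate O-feruloyl transferase in one annotation and RPD1 in the other, averaged 201 ± 9.28 RPKM with MdMYB68 and 6.80 ± 0.982 RPKM with Empty vector (SD, n = 4 each).

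Other glycerolipid enzymes, which act in membrane and storage lipids, had the lowest median of the lists that hold more than 1 contig, at 2.22. All 6 contigs were called higher, and 2 of the 6 were positive with TMM factors. They were 2 contigs of LPP3, a lipid phosphate phosphatase, 2 of DGD2, a galactolipid synthase, 1 of PDAT, which makes storage oil, and the diacylglycerol kinase contig already named. LPP3 contig Nbv5tr6205737 averaged 106 ± 9.63 RPKM with MdMYB68 and 22.5 ± 1.75 RPKM with Empty vector (SD, n = 4 each), a 4.69-fold ratio that turned to -0.73 on the log2 scale with TMM factors.

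Downstream of GPATs, transport and assembly contigs had high medians. All 32 ABCG transporter contigs were called higher, with a median log2 ratio of 7.74 when the 10 without a read in Empty vector leaves were set against a floor of 3 reads, and all 32 were positive with TMM factors. At least 50% of reads were uniquely placed in 12 of the 32. In uniquely placed reads 22 were called higher, beside 70.5% of all contigs. Of the 32 contigs, 13 had the symbol PDR12, known in Arabidopsis for abscisic acid uptake rather than for export of suberin precursors. ABCG1-type contig Nbv5tr6236478 averaged 329 ± 14.9 RPKM with MdMYB68 and 1.5 ± 0.705 RPKM with Empty vector (SD, n = 4 each). Of 17 GDSL esterase contigs, a family with members that polymerise cutin and suberin, 15 were called higher and 1 lower. Their median was 4.39, and 13 were positive with TMM factors. The one not called, Nbv5tr6283363, had a log2 fold change of -2.94 (edgeR adjusted p = 0.0021), and the one called lower was Nbv5tr6243720 at -2.02. One of those called higher, Nbv5tr6400407, carries the name of a UDP-glucose epimerase in the other annotation. GDSL contig Nbv5tr6222730 (AT1G74460) averaged 392 ± 20.7 RPKM with MdMYB68 and 0.559 ± 0.157 RPKM with Empty vector (SD, n = 4 each).

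**Figure D3:**
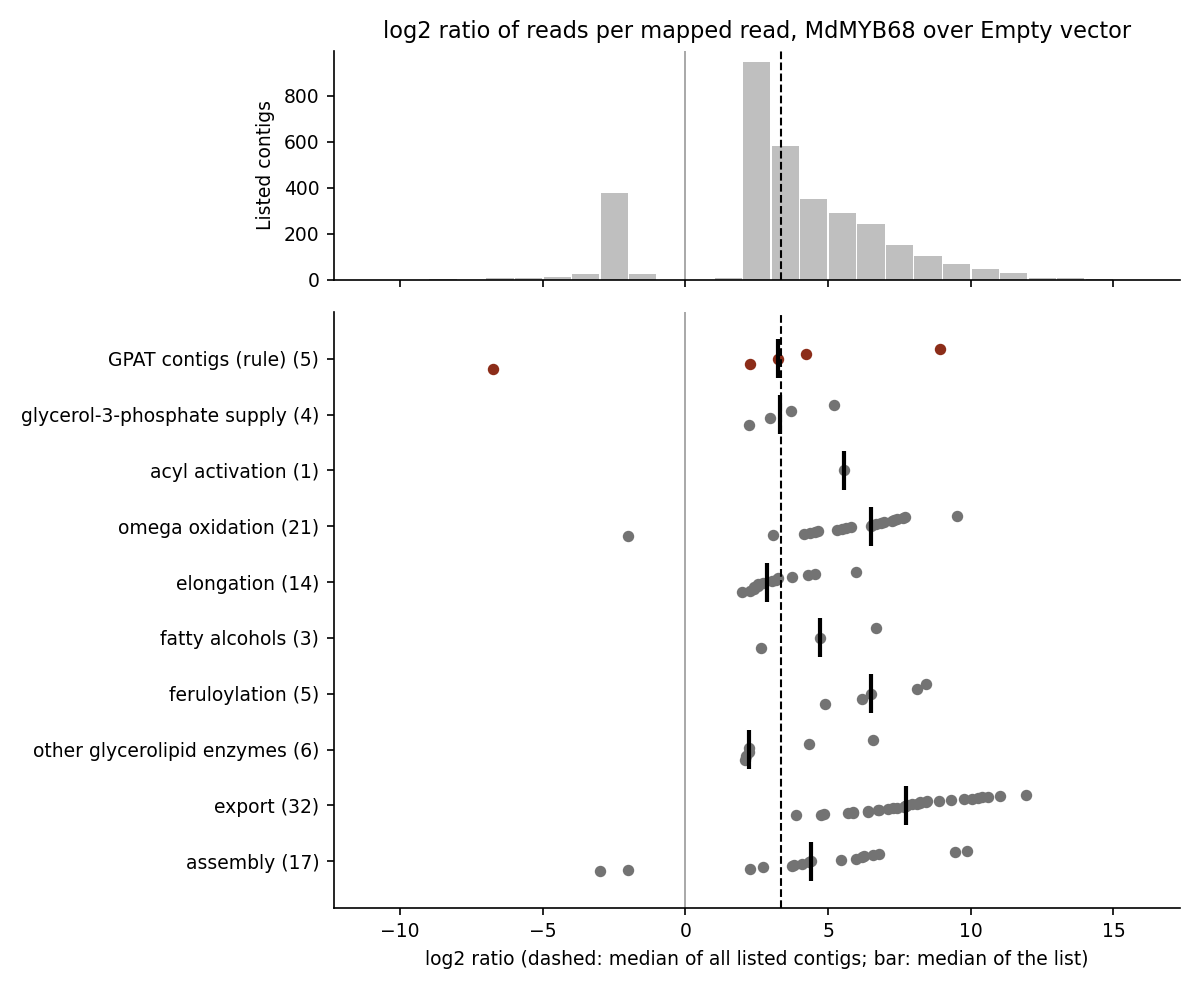
Log2 ratio of reads per mapped read, MdMYB68 over Empty vector: number of the 3305 listed contigs per bin of 1 (top) and each contig of the member set and of 9 lists (below), with the number of contigs in brackets, a bar at each median and a dashed line at 3.35, the median of all contigs. The 4 GPAT points lie between 2.27 and 8.93, with Nbv5tr6232718 farthest right among the members, and the ATS2 contig lies at -6.73. With TMM factors 1 of the GPATs, Nbv5tr6238075, and some list contigs would lie below 0.

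The contigs with the profiles most like each GPAT were sought over the 8 libraries, by the root mean square difference of log2(RPKM + 0.1) with all mapped reads as the base. For Nbv5tr6238075, the GPAT5 contig with more control expression, the nearest were an NLP7-like contig (Nbv5tr6227113, 0.19), an inactive receptor kinase (Nbv5tr6242259, 0.20), a cationic peroxidase (Nbv5tr6222398, 0.25), VPS28-2 (Nbv5tr6230228, 0.25) and MLO4 (Nbv5tr6245936, 0.26). For Nbv5tr6232718 they were an O-methyltransferase (Nbv5tr6214002, 0.18), a WSD1-like acyltransferase (Nbv5tr6205672, 0.30), an ATL42-like ubiquitin ligase (Nbv5tr6217241, 0.42), a RAX2-like factor (Nbv5tr6205048, 0.42) and a MYB39-like factor (Nbv5tr6216797, 0.42). For GPAT6 they were a mannan endo-beta-mannosidase (Nbv5tr6211976, 0.24), CYP76C7 (Nbv5tr6207357, 0.32), an HVA22-like protein (Nbv5tr6389565, 0.34), a GH3 amido synthetase (Nbv5tr6356839, 0.36) and a contig with the symbol MYB93 that both annotations name MYB39 (Nbv5tr6229127, 0.38). For the GPAT1-like contig they were a wall acetylation protein (Nbv5tr6355838, 0.12), DAR2 (Nbv5tr6231862, 0.13), a receptor-like kinase (Nbv5tr6221324, 0.17), SAC51 (Nbv5tr6213686, 0.20) and RABA1f (Nbv5tr6220758, 0.20).

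**Figure D4:**
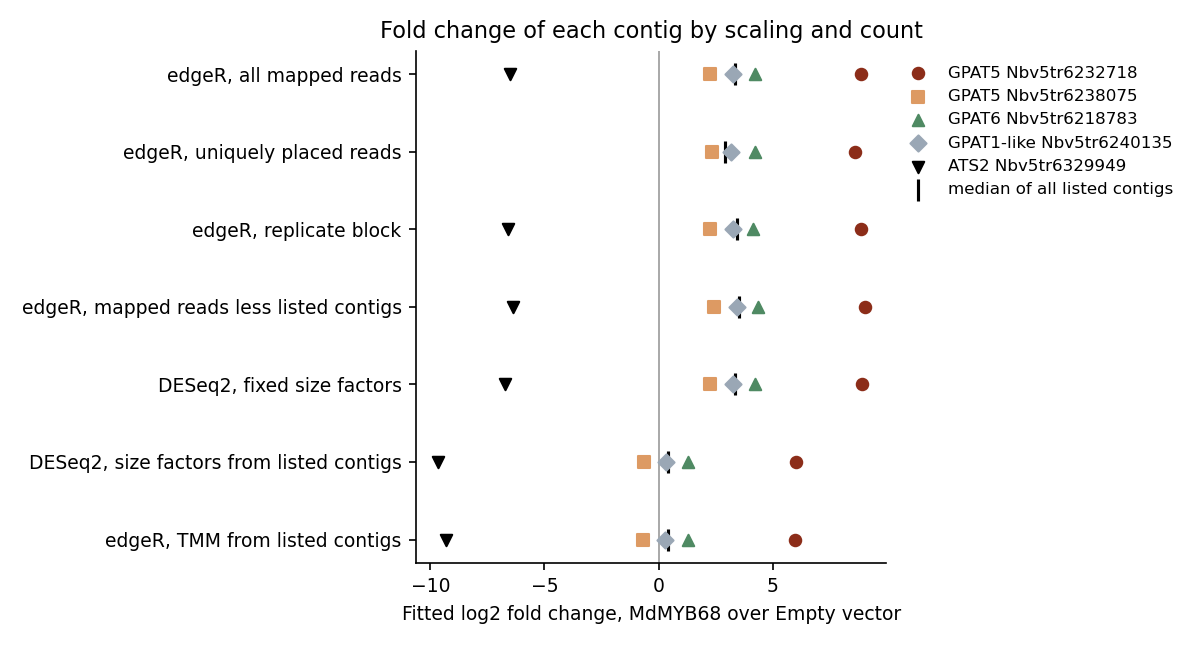
Fitted log2 fold change (horizontal axis), MdMYB68 over Empty vector, of the 5 member contigs under 7 combinations of test, read count and library scaling, with a black tick at the median of all listed contigs. All points shift left together when scaling factors come from the listed contigs (DESeq2 own factors and TMM, last 2 lines), where Nbv5tr6238075 lies below 0 at -0.66 and -0.68. ATS2 has no point for uniquely placed reads because it had none.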

How the data were processed

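Leaf RNA of 4 MdMYB68 and 4 Empty vector replicates was sequenced as 75 base-pair paired-end reads. The authors trimmed the reads and used CLC Genomics Workbench 11.0.1 to map them, at 80% identity, to version 5 of the N. benthamiana transcriptome, with its primary and its alternate contigs as separate reference sets. The authors deposited raw counts per contig (total gene reads, and the subset that was uniquely placed) and RPKM values scaled to the reads mapped to each contig's own reference set. The authors also deposited group mean RPKM, contig length (recorded as other), the RPKM difference (a score), the fold change, p-value and FDR of their own comparison, of which the comparison columns were not used here. No column of per-sample values was left unmapped. Library sizes were recovered from reads, length and RPKM.

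Counts were tested with edgeR 4.0.16 (quasi-likelihood, normalization factors of 1, no covariates) in R 4.3.3, adjusted over all 3305 contigs at 0.001. Each standard error is the log2 fold change over the root of its F statistic. Single values and pairs, as log2(reads + 1), were compared by exact permutation tests, with a pair threshold of 0.05, in Python 3.11.15 (scipy 1.17.1, numpy 2.4.6, pandas 2.3.3, with matplotlib 3.10.9 for plots). Counting intervals are exact Clopper-Pearson at 95%, floors are 3 reads, and both cover counting error only. Steps were tested on simulated counts for this comparison with 200 of 3305 contigs changed: edgeR found 135 of them, or 122 of 145 with a 4-fold or larger change, and made 0 false calls. The limma test found 137 with 0 false calls, and DESeq2 found 165 with 7. The simulation left most contigs unchanged and changed the rest in both directions, while every deposited contig had been selected for change. Its counts of false calls therefore do not carry over to these data.

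Every member was named. The nearest 5 profiles were named for the contig with the most reads under GPAT5 and under GPAT6, for the GPAT1-like contig because no contig has the symbol GPAT1, and, added after values were seen, for Nbv5tr6232718. From each list the most-read contig with at least 50% uniquely placed reads was named. Members and lists were chosen with earlier results of these data known. Alternatives were uniquely placed reads, TMM factors, DESeq2 1.42.0, limma 3.58.1 on log2 RPKM with a pseudocount of 1 or 0.1, totals of each reference set, a mean of at least 10 reads, a threshold of 0.05, a pair pseudocount of 0.5, a replicate block, leaving out each library and, chosen after seeing the data, library sizes without the listed contigs.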

Additional observations from a re-analysis of the deposited data

Results flagged for a closer look

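In 3 of the 10 sets of 4 libraries formed by the 5 members and 2 groups, 1 library stood apart from the other 3 by Dixon's criterion, which flags about 1 in 20 groups by chance. For the GPAT1-like contig, Empty vector library 1 was lowest at 4.07 RPKM, with the others between 4.42 and 4.46 RPKM. These were 26 reads against 29 to 31, and the coefficient of variation of 4.13% was below the 18.5% that counting alone would give. For ATS2, MdMYB68 library 3 was highest at 0.356 RPKM, with the others listed at 0, where any single non-zero value would be flagged. For ATS2, Empty vector library 1 was highest at 16.0 RPKM, with the others between 7.19 and 7.89 RPKM. The ATS2 values rest on 3 reads with MdMYB68 and on reads that were never uniquely placed.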

How the results depend on the processing

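The number of GPAT contigs called higher was 4, but 1 with TMM factors and 2 with DESeq2's own size factors. Nbv5tr6238075 turned to -0.68 (TMM) and -0.66 (DESeq2), GPAT6 had 1.27 with TMM, and the GPAT1-like contig had 0.29 (TMM) and 0.32 (DESeq2), none of these 3 called higher there except GPAT6 with DESeq2. Over all contigs TMM factors gave 1576 calls (61.2% higher) and DESeq2's own factors 1977 (62.1% higher), against 3168 (87.0% higher) with all mapped reads. List contigs called higher numbered 2 for glycerol-3-phosphate supply under both, 13 for omega oxidation and 7 for assembly with TMM, 3 for elongation with TMM and 4 with DESeq2, and 1 for other glycerolipid enzymes under both. Uniquely placed reads called 22 of 32 export contigs higher, 16 of 21 for omega oxidation and 4 of 5 for feruloylation, beside 70.5% of all contigs. The replicate block called 3 of the 6 other glycerolipid contigs higher, and called 2615 contigs in all. Replicate numbers did not pair the samples (correlations of same-numbered deviations between -0.025 and -0.011, and no library matched its own number best), and under the block 4 GPAT contigs were called higher, as without it. The pair of GPAT6 and the GPAT1-like contig had 1.00 in uniquely placed reads and passed. Leaving out 1 library at a time kept 4 GPAT contigs called higher, with log2 fold changes of 8.57 to 9.16 (Nbv5tr6232718), 2.14 to 2.40 (Nbv5tr6238075), 3.93 to 4.38 (GPAT6), 3.19 to 3.28 (GPAT1-like) and -9.31 to -6.14 (ATS2, the lowest without MdMYB68 library 3). Library sizes without the listed contigs, chosen after seeing the data, changed none of these calls. Few control reads limit the size of the rise of Nbv5tr6232718, and ATS2 gives no value with uniquely placed reads.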
